A study of Mus musculus with 12 samples.

Results

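Mast cell and basophil genes were followed across early T cell development through 9 members, Gata2, Cpa3, Ms4a2, Fcer1a, Mcpt8, Cma1, Hdc, Mitf and Il1rl1, of 21755 protein-coding genes on the autosomes and X. The members were taken as a list of genes that mark these lineages. Each was given a window of its gene body plus 50 kb on either side, and every DNase I hypersensitive site (DHS) in the window was assigned to it. The windows held 137 of 170207 DHSs, of which 9 lay at a member's own promoter, within 1 kb of its start, 13 at the promoter of another gene and 115 were distal.

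Mast cells and basophils arise from marrow progenitors under GATA factors. GATA2 is the shared regulator of both lineages, and MITF is needed for mast cells. They sense IgE through the high affinity receptor, whose subunits include the products of Fcer1a and Ms4a2, and sense interleukin-33 through ST2, the product of Il1rl1. Their granules hold histamine, made by histidine decarboxylase (Hdc), carboxypeptidase A3 (Cpa3) and serine proteases such as chymase (Cma1) and the basophil protease MCPT8.

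DNase-seq cuts chromatin where it is accessible, and each of 12 libraries came as 1 list of peaks. LSK (n = 3) were Lin-SCA1+KIT+ marrow progenitors of C57BL/6J mice, not cultured, and the other groups were grown from such cells on Retronectin with SCF, FLT-3 ligand, IL-6 and IL-11. DN1 (n = 2, KIT++CD44+CD25-), DN2a (n = 2, KIT++CD44+CD25+) and DN2b (n = 2, KIT+CD44lo CD25+) were sorted from cultures on the immobilized Notch ligand Delta1, DN2a and DN2b after IL-7 had been added, so that DN2 and DN1 also differ in IL-7. IgG (n = 3) was grown on human IgG1 without Notch ligand, and no sort of it is given in the sources used here. The age of the mice is not given there either. DN1, DN2a and DN2b are together called Delta1 (n = 6 libraries). The sources name IL-7 for Delta1 cultures only, so IgG and LSK may also differ in IL-7 from the DN2 libraries within Delta1. Each LSK isolate gave all 3 DN populations, so the 6 libraries are not 6 independent isolates, and the p-values below, which treat them as independent, may be too small. All are mixed populations, so a site that is open in fewer cells and one that is less open in each cell cannot be told apart.

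A DHS here is a set of peaks that overlap by at least 1 bp in any library, and it is called open in a library whose list has a peak in it. The strength of a peak is given as the percentile of its score among all peaks of the same library, from 0 to 100, and a library without a peak is set to 0. The lists held 32952 to 111582 peaks on the autosomes and X, 32952 to 37511 in IgG, 53869 to 62377 in LSK and 57729 to 111582 in Delta1. Absence of a peak in IgG therefore also moves with the length of its lists, and counts and tests were repeated with every list cut to its 32952 highest scores ("equal lengths"). Percentiles are from the lists as deposited unless equal lengths are named. Read depth is unknown. As a check of the labels, promoters of 8 T lineage genes were open at 7 in each DN2 library, 4 in each DN1 library, 1 or 2 in LSK and 0 in IgG. Of 8 neutrophil genes (Elane, Mpo, S100a8, S100a9, Ltf, Camp, Cebpe, Ngp), 5 or 6 were open at the promoter in IgG, 1 or 2 in LSK and 0 to 2 in Delta1.

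Of the 9 member promoters, 3 (Ms4a2, Fcer1a and Cma1) had no peak in any of the 12 libraries, close to the 37.5% of all 21755 protein-coding genes without one. The window of Fcer1a held no DHS at all, as was the case for 6.54% of protein-coding genes. The other windows held 12 (Cma1) to 28 (Il1rl1) DHSs, against a median of 17 over all genes. Of the 137 sites, 45 (32.8%) were open in a single library, against 32.7% of all DHSs. Only 1 was open in all 12 libraries (0.730%, against 7.68% of all DHSs), the promoter of the neighbouring gene Il18rap, 85.8 kb downstream of the Il1rl1 start. The sites that followed the groups are described in turn, sites open with Delta1 alone, at Cpa3, Mcpt8 and Il1rl1, sites of the Gata2 locus shared with progenitors, sites open only in IgG, and the promoters.

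The sites listed in 6 of 6 Delta1 libraries but absent from LSK and IgG are shown first, because each of the 3 holds the letters of the GATA motif. Sequences are the mm10 reference, plus strand, over the whole site. Capitals mark the GATA letters AGATAA or TGATAA and the C/EBP letters TTGCNNAA, on either strand.
Cpa3 1.95 kb upstream, chr3:20244037-20244226, between genes: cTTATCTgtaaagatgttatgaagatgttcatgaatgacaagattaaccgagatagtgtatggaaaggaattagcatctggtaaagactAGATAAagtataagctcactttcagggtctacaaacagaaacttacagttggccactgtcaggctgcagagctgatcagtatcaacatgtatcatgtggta
Mcpt8 8.28 kb upstream, chr14:56093457-56093646, between genes: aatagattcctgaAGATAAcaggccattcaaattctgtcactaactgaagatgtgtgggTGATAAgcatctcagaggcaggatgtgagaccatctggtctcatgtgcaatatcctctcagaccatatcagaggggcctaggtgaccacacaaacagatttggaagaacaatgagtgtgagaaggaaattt
Il1rl1 7.95 kb downstream, chr1:40437417-40437626, intron of Il1rl1: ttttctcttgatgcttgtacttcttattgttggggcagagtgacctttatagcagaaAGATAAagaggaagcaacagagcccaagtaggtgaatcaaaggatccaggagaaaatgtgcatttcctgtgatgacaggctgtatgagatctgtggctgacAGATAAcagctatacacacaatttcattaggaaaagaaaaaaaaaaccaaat
Each of the 3 sequences holds 2 GATA matches and no C/EBP match.

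The site upstream of Cpa3 was among the strongest of its libraries. Its percentile was 90.5 and 77.0 in DN1, 96.0 and 95.2 in DN2a and 91.5 and 95.8 in DN2b, and no peak was listed in the 3 LSK or the 3 IgG libraries. The pattern was the same at equal lengths, with a peak in 6 of 6 Delta1 libraries and none elsewhere. The site upstream of Mcpt8 had percentiles of 53.7 and 45.2 in DN1, 71.6 and 67.7 in DN2a and 47.0 and 62.2 in DN2b. It was of middling rank in every Delta1 library, and at equal lengths 3 of the 6 kept it. The site in Il1rl1 had percentiles of 83.6 and 78.6 in DN1, 62.3 and 54.4 in DN2a and 10.8 and 36.9 in DN2b, so both DN1 libraries were above all 4 DN2 libraries. At equal lengths it was listed in 4 of 6 Delta1 libraries. This last site lies within 1 kb of a second annotated start of Il1rl1, 7.02 kb into the gene, which was thereby open in all 6 Delta1 libraries and in no other. The first start of Il1rl1 was open in the 2 DN1 libraries alone.

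Over all 137 sites, 3 (2.19%) had this pattern, against 1.9% of all DHSs, and at equal lengths 3 of 72 (4.17%) against 1.86%. Only the Cpa3 site was in both counts. The others at equal lengths lay 31.1 kb downstream of the Cma1 start and 21.8 kb into Hdc. When IgG was left out of the rule, 4 sites (2.92%) were open in all Delta1 and no LSK library, against 2.14% of all DHSs, the added one being the Mcpt8 promoter. At equal lengths that count was 4 of 72 (5.56%) against 2.3%, the added one being a site 189 kb into Mitf. The Mcpt8 promoter was not among them. Without LSK replicate 2 or without DN1 replicate 2, 5 sites (3.65%) were open with Delta1 alone, against 2.17% and 2.57% of all DHSs. As deposited, these shares are close to the background.

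**Figure D1:**
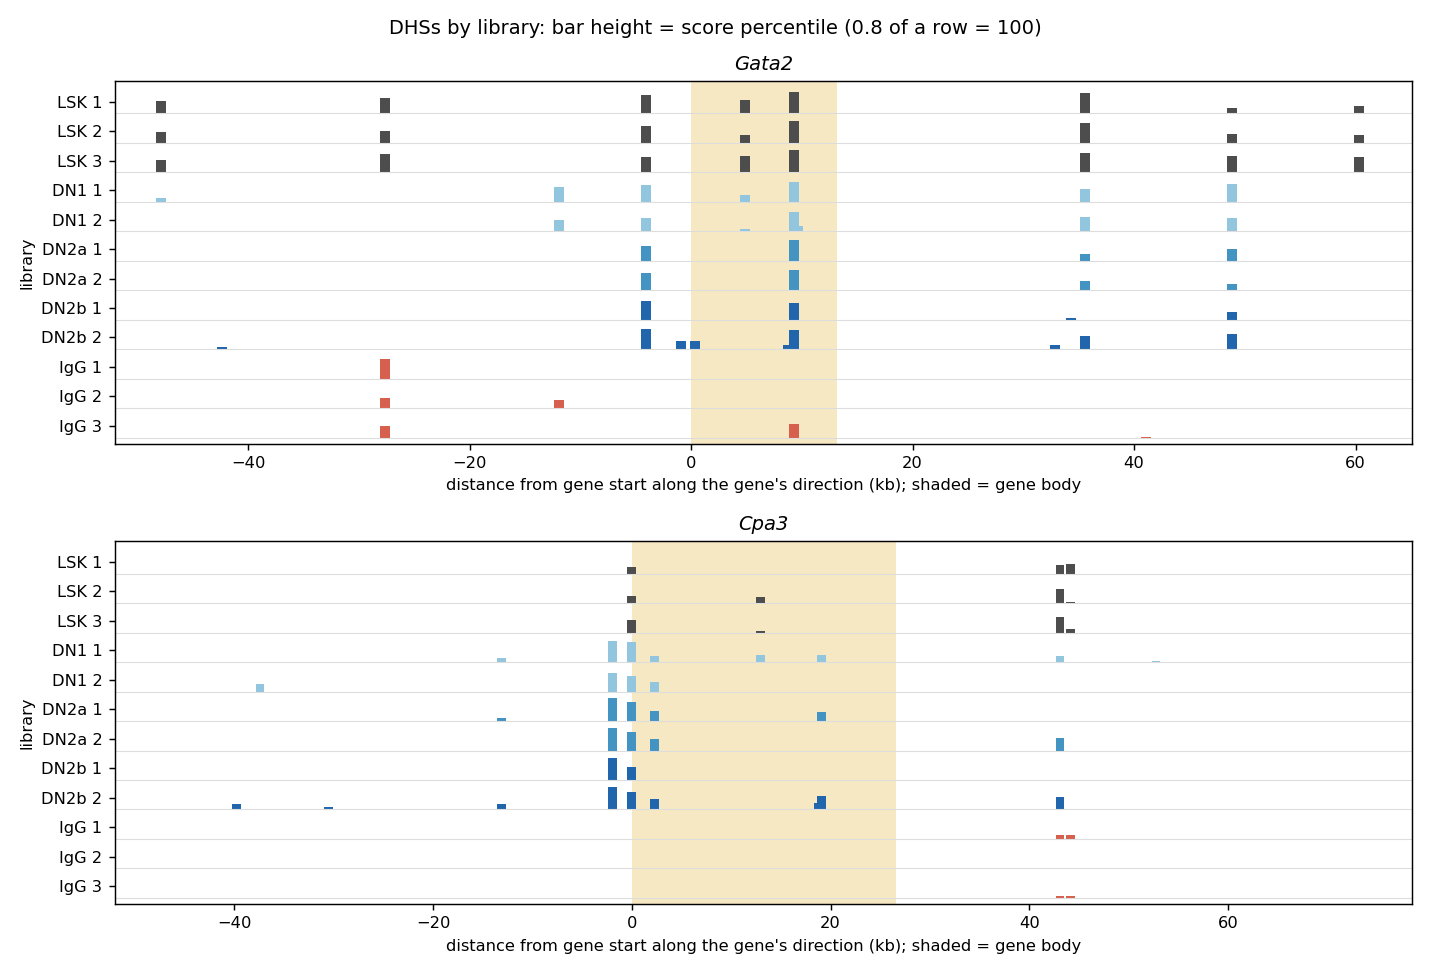
DHSs within 50 kb of Gata2 and Cpa3 in each of the 12 libraries, with distance from the gene start in kb on the x axis and bar height giving the score percentile within the library. Bars are drawn wider than the sites, and the shaded band is the gene body. The bar 1.95 kb upstream of Cpa3 is present in the 6 Delta1 libraries only, while the bar 9.29 kb into Gata2 is present in LSK, Delta1 and 1 IgG library.

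The Gata2 locus held sites that were open in LSK and closed in part of the cultures. The pair printed here are the strongest in the locus and the only one of all 137 that was open in every LSK and IgG library and in no Delta1 library (without IgG replicate 2 there were 2, or 1.46%, against 0.122% of all DHSs).
Gata2 9.29 kb downstream, chr6:88203077-88203286, intron of Gata2: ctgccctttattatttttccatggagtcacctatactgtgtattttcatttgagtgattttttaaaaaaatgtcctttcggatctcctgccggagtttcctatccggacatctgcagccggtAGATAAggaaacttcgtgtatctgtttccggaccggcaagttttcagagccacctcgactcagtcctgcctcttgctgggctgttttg
Gata2 27.6 kb upstream, chr6:88166157-88166366, between genes: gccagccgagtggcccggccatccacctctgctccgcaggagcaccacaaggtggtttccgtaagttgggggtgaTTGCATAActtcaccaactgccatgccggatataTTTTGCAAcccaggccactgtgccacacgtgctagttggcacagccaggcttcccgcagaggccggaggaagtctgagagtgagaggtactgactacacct
The intronic sequence holds 1 GATA match. The letters CATCTG, then 8 bases of any kind, then AGATAA were searched for after this sequence had been read, on both strands of the central 150 bp of each DHS. They occurred in 27 of 170204 DHSs (0.0159%), and among the 137 sites in this one alone. The upstream sequence holds 2 C/EBP matches and no GATA match.

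The intronic Gata2 site had percentiles of 91.8, 91.0 and 95.9 in LSK, 85.4 and 82.5 in DN1, 88.1 and 85.3 in DN2a and 72.8 and 80.1 in DN2b. In IgG it was listed in replicate 3 alone, at 58.2. All LSK values were above all Delta1 values, and the single IgG value was below them. At equal lengths LSK (85.1 to 92.2) stayed above Delta1 (32.6 to 75.2), but IgG replicate 3 (52.4) lay among the Delta1 libraries. A second site, 4.10 kb upstream in an intron of the non-coding gene Gm38708, was open in every LSK library (76.4, 70.0 and 67.0) and every Delta1 library (55.1 to 86.7), but in no IgG library, as it was at equal lengths. The site 27.6 kb upstream had the opposite distribution. It was listed at 65.0, 51.4 and 76.3 in LSK and at 84.6, 43.4 and 48.9 in IgG, and in none of the 6 Delta1 libraries. That pattern held at equal lengths and was seen in 0.0987% of all DHSs (0.464% at equal lengths).

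Further Gata2 sites were open in LSK and weaker or absent in DN2. The site 35.6 kb downstream, in an intron of the neighbouring Dnajb8, stood at 86.9, 84.6 and 83.5 in LSK, at 56.6 and 61.8 in DN1 and at 30.3 to 57.0 in the 3 DN2 libraries that had it. The site 60.3 kb downstream was open in LSK alone (30.2, 31.6 and 67.0), and at equal lengths in 1 LSK library only. The site 47.8 kb upstream was open in LSK (50.8, 47.0 and 52.7) and in 1 DN1 library (18.3). The second annotated start of Gata2, 4.44 kb into the gene, was open through a neighbouring site in the 3 LSK libraries (58.6, 31.6 and 70.5) and the 2 DN1 libraries (27.2 and 11.9) and in none of the DN2 or IgG libraries. The first start was open in DN2b replicate 2 alone, the longest list of all.

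Counted over the window, Gata2 had 8, 8 and 8 sites in LSK, 7 and 7 in DN1, 4 and 4 in DN2a, 4 and 9 in DN2b and 1, 2 and 3 in IgG. IgG lay below every Delta1 library, by 3.83 sites on average. This was not significant over 20333 genes (exact permutation test, two-sided, p = 0.0238, Benjamini-Hochberg adjusted p = 0.0788), and 41.4% of genes had IgG below Delta1 without overlap. At equal lengths the LSK counts (6, 5 and 8) lay above all Delta1 counts (2 to 4), by 3.83 sites (exact permutation test, p = 0.0119, adjusted p = 0.122), as they did for 6.54% of genes. With the lists as deposited LSK and Delta1 overlapped. With a window of 25 kb the mean of LSK was below that of Delta1.

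The third class comprised sites open in every IgG library and in no Delta1 library. They numbered 8 of 137 (5.84%), against 2.28% of all DHSs, and 11 of 72 (15.3%) at equal lengths, against 7.44%. Of the 5 that were also closed in LSK, 3 are shown, from different windows, because all 3 hold the C/EBP letters, with capitals as above. In the central 150 bp, C/EBP letters were in 3 of these 5, against 41.9% of the 3213 such DHSs.
Hdc 18.6 kb downstream, chr2:126600637-126600786, exon of a non-coding transcript of Hdc: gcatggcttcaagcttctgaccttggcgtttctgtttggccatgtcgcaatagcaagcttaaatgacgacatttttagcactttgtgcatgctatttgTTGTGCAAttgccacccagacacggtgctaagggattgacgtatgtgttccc
Ms4a2 35.6 kb upstream, chr19:11659277-11659426, intron of Oosp2: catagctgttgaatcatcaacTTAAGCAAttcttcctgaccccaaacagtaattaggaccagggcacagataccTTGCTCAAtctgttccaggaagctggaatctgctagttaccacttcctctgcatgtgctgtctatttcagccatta
Il1rl1 53.0 kb downstream, chr1:40482517-40482686, intron of Il18r1: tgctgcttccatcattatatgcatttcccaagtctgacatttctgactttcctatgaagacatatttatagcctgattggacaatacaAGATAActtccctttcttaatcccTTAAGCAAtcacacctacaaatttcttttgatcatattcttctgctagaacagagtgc
C/EBP factors drive granulocyte genes. The first sequence holds 1 C/EBP match, the second 2 and the third 1, beside 1 GATA match in the third.

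The Hdc site had percentiles of 79.2, 74.1 and 64.2 in IgG and the Ms4a2 site 85.1, 83.3 and 89.7, and neither was listed in LSK or Delta1. The Il1rl1 site was weaker, at 50.7, 29.3 and 13.1. The site 17.7 kb downstream of the Cma1 start, beyond the gene, was weaker still, at 17.9, 40.9 and 10.7. The fifth, upstream of Mcpt8 at chr14:56105157-56105386, stood at 70.7, 68.2 and 78.8. Sites open in IgG and in neither LSK nor Delta1 made up 3.65% of the 137, against 1.89% of all DHSs, and 10 of 72 (13.9%) at equal lengths, against 6.23%. Sites open in IgG and not in LSK also numbered 8 of 137, against 2.51% of all DHSs, and 11 of 72 at equal lengths, against 7.24%.

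Several of these IgG sites lay nearer to a neutrophil gene than to the member. The fifth of these sites and another 20.3 kb upstream of Mcpt8 (85.4 ± 1.77 in IgG, SD, n = 3, and 21.2 in 1 LSK library) had as nearest start Ctsg, the gene of cathepsin G, a granule protease of neutrophils. The Ctsg promoter itself stood at 86.5, 84.7 and 88.3 in IgG and was listed in 4 of 6 Delta1 libraries at 12.9 to 42.8. In the Ms4a2 window the promoter of Ms4a3, a gene of granulocyte and monocyte progenitors, stood at 88.1, 90.0 and 85.1 in IgG, at 10.2 in 1 LSK library and nowhere in Delta1. Of the 8 neutrophil promoters given above, 4 (Camp, Ngp, S100a8 and S100a9) were open in 3 of 3 IgG and 0 of 6 Delta1 libraries. Elane and Mpo were open in 1 IgG library alone, Cebpe in 2 IgG and 1 DN2b libraries, and Ltf in 9 libraries, of which 1 was IgG. Of 8 macrophage and dendritic promoters, 2 (Adgre1 and Siglec1) were also open in all IgG and no Delta1 libraries, a pattern of 0.514% of promoters. The reverse was seen at 1 (Itgax), a pattern of 4.19% of promoters. In each library 4 or 5 of these 8 were open in IgG, 3 or 4 in LSK and 3 or 4 in Delta1. The part of these genes in the IgG sites was not tested.

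The opposite pattern, open in all Delta1 and no IgG library, held for 13 of the 137 sites (9.49%), against 6.94% of all DHSs, and for 8 of 72 (11.1%) at equal lengths, against 5.01%. Beside the Cpa3, Mcpt8, Il1rl1 and Gata2 sites above, it included sites 21.8 kb (70.0 to 88.1 in Delta1, 36.0 in 1 LSK library) and 13.1 kb (67.2 to 87.4 in Delta1, 44.6 in 1 LSK library) into Hdc. It also included 3 sites that were listed in LSK, those 48.9 kb downstream of the Gata2 start (27.8 to 75.8 in Delta1, 21.2 to 71.6 in 3 LSK libraries), 13.8 kb upstream of Mcpt8 (42.3 to 75.6, and 27.3 and 42.0 in 2 LSK libraries) and 44.3 kb downstream of the Il1rl1 start (54.3 to 83.1, and 36.0 to 42.2 in 3 LSK libraries). Hdc thus held Delta1 sites and an IgG site within the same gene body, with a further site at 16.9 kb that was shared (65.3, 80.9 and 74.5 in IgG, 43.7 and 53.5 in 2 LSK libraries, 69.7 and 63.2 in DN1, and listed in 2 of 4 DN2 libraries). A pair of Hdc sites in introns of Gabpb1, 16.8 and 17.4 kb upstream, also belonged to the 13 and had different ranks in DN1. The first was higher in DN1 (80.9 and 82.5) than in LSK (52.9, 57.2 and 64.3), and the second lower in DN1 (33.6 and 14.3) than in LSK (58.6, 49.3 and 67.0). In DN2 both overlapped with LSK, the first at 78.6 and 65.3 in DN2a and 47.0 and 74.3 in DN2b, the second at 20.7 and 32.6 in DN2a and 20.4 and 61.3 in DN2b. A site 31.1 kb downstream of the Cma1 start, nearest to Sdr39u1, was also among the 13. It stood at 59.5 to 84.6 in Delta1 and at 13.3 in 1 LSK library. The last of the 13 was the Cpa3 promoter, described below. A site open in LSK and Delta1 but not IgG was found 6 times (4.38%, against 3.17% of all DHSs), and 2 times among 72 at equal lengths (2.78%, against 1.95%).

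**Figure D2:**
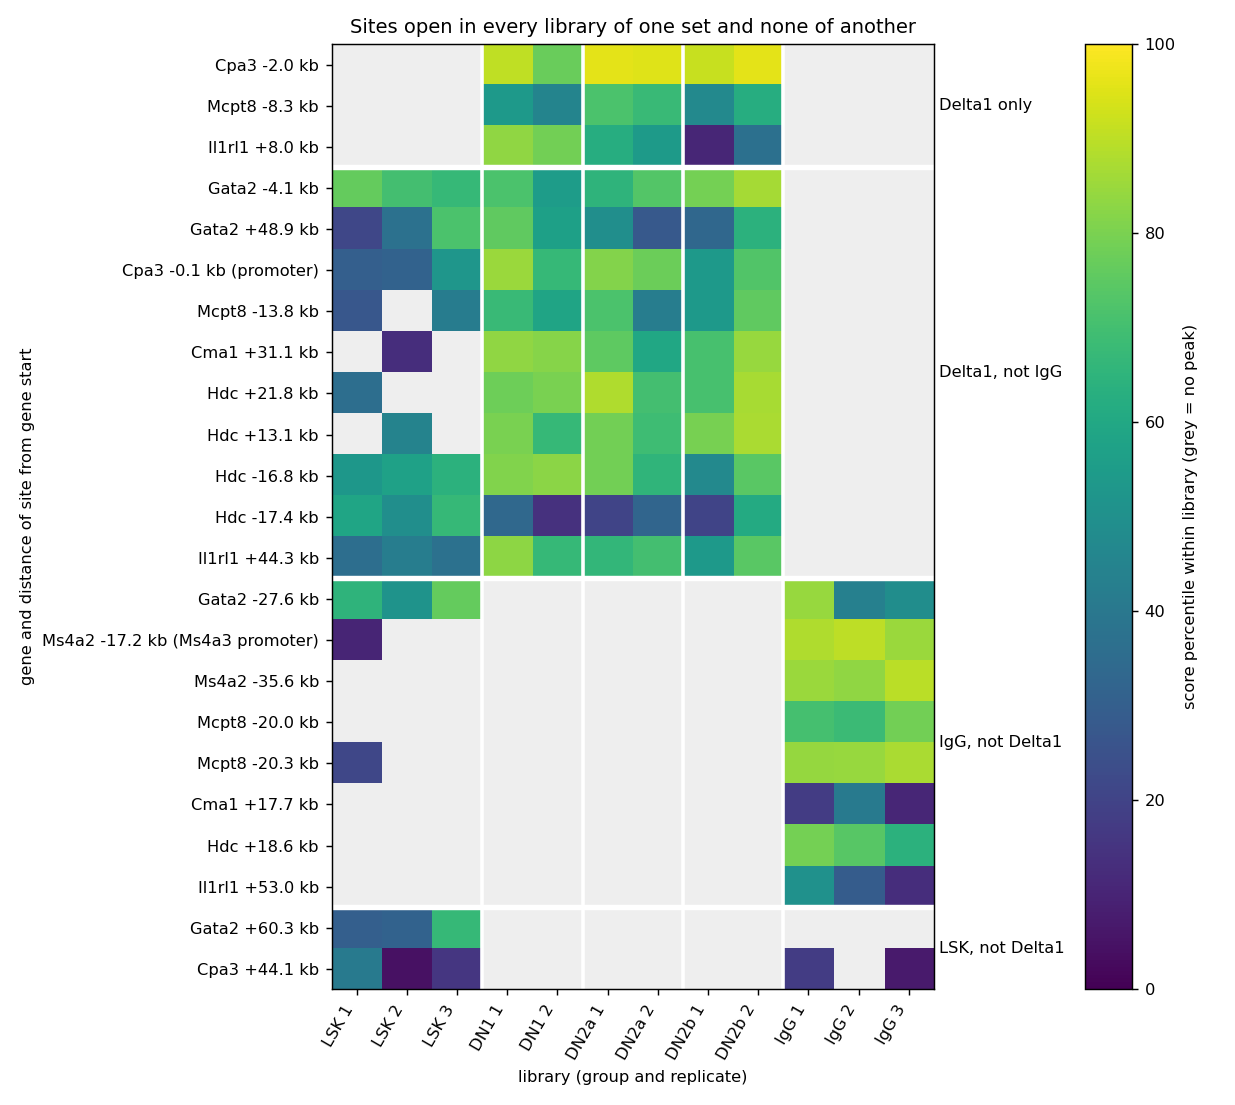
Score percentile within the library, by colour, of the 23 sites open in all Delta1 and no IgG libraries, in all IgG and no Delta1 libraries or in all LSK and no Delta1 libraries, with 1 row a site and 1 column a library, and grey where no peak was listed. The Cpa3 row at the top is brightest in DN2a and DN2b, and the rows of the IgG block near Ms4a3 and Ctsg are brighter than those of Cma1 and Il1rl1.

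Among sites of the progenitors, 18 of 137 (13.1%) were open in each LSK and no IgG library, against 7.87% of all DHSs, and 9 of 72 (12.5%) at equal lengths, against 7.03%. Of these 18, 6 lay in the Gata2 window. A further count, of sites open in each LSK and no Delta1 library, gave 3 (2.19%), against 0.847% of all DHSs, namely the Gata2 sites 27.6 kb upstream and 60.3 kb downstream and a weak site 44.1 kb downstream of the Cpa3 start (41.2, 4.57 and 16.0). At equal lengths there were 3 of 72 (4.17%), against 2.97%, the Gata2 sites 27.6 and 47.8 kb upstream and the Hdc site 17.4 kb upstream, so 1 of the 3 is shared between the counts.

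Within the Delta1 cultures, DN1 and DN2 were compared site by site. No site of the 137 was open in all 4 DN2 and neither DN1 library, a pattern of 0.905% of all DHSs (at equal lengths also none, against 2.7%). The reverse, open in both DN1 and no DN2 library, held for 12 sites (8.76%), against 3.86% of all DHSs, and for 4 of 72 (5.56%) at equal lengths, against 3.78%. The strongest 3 were 11.9 kb upstream of Gata2 (63.2 and 47.4 in DN1), 36.8 kb upstream of Il1rl1 (58.0 and 51.5) and 9.47 kb into Hdc, with a mean of 47.5. Without DN1 replicate 2 the count was 22 (16.1%), against 12.8% of all DHSs under the same rule. The count for DN2 without DN1 was 3 (2.19%) without DN1 replicate 1, against 2.54%, and 2 (1.46%) without either DN2a library, against 1.29% and 1.75%. None of the 12 was kept in any Delta1 library at equal lengths, so the 4 sites counted there are others. Il1rl1 had 16 and 16 sites in DN1 and 10, 7, 8 and 13 in DN2, without overlap, a mean difference of -6.50. The exact permutation test of 4 against 2 libraries gave the smallest p it can, 0.0667 (adjusted p = 1), and 4.39% of genes had DN2 below DN1 without overlap. Gata2 and Cma1 joined it without DN2b replicate 2, when 23.5% of all genes did not overlap in either direction. Mitf joined without DN2a replicate 1 (6.43% of genes) or DN1 replicate 2 (25.8%), and Hdc, with DN2 above, without DN1 replicate 1 (16.7%). At equal lengths Il1rl1 overlapped, and Gata2 (2 in each DN2, 3 and 4 in DN1) and Ms4a2 (1 or 2 in DN2, 4 and 4 in DN1) were the members below, against 8.77% of genes.

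Of the promoters, that of Cpa3 is described first. The gene's start, on the minus strand of chromosome 3, is shown with the 250 bases before it in RefSeq (GRCm38.p6), read in the direction of the gene.
Cpa3 promoter, chr3:20242182-20242431, minus strand: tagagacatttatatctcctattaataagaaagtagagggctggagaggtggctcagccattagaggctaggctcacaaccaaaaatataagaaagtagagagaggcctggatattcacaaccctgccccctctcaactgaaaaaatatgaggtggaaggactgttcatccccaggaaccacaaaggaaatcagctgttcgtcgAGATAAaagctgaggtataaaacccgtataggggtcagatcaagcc
The only GATA match lies in the part of this sequence nearest to the start, though not in its last bases.

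The Cpa3 promoter stood at 30.2, 31.6 and 52.7 in LSK, at 85.0 and 67.2 in DN1, at 81.3 and 77.7 in DN2a and at 54.3 and 73.0 in DN2b, and was not listed in IgG. Every Delta1 value was above every LSK value, but not at equal lengths, where DN2b replicate 2 was below LSK replicate 3 (10.4). The mean was 73.1 ± 11.1 (SD, n = 6) in Delta1, 38.2 ± 12.6 (SD, n = 3) in LSK and 0 in IgG. IgG was lower than Delta1 by the exact permutation test over 13606 promoters (p = 0.0119, the smallest that 3 against 6 libraries can give, adjusted p = 0.0309). The same call was made at 37.5% of promoters, and 39.2% had IgG below Delta1 without overlap. At equal lengths the groups still did not overlap, as at 15.8% of promoters, but the difference was -38.7, against -73.1 as deposited. The adjusted p of the exact permutation test was then 0.0879. Leaving out any 1 IgG library, which lowers the number of divisions, left the difference at -73.1. It also ended the call (exact permutation test, adjusted p = 0.0785 to 0.0887). An open promoter in all Delta1 and no IgG libraries was seen at 4.19% of promoters (1.92% at equal lengths), and Cpa3 was the 1 member that had it under both. The difference between LSK and Delta1 did not pass the test (-34.9, p = 0.0119, adjusted p = 0.117, exact permutation test), nor did it at equal lengths (adjusted p = 0.219). With the lists as deposited 9.13% of promoters had LSK below Delta1 without overlap.

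The Mcpt8 promoter was open in all 6 Delta1 libraries (56.6 and 42.9 in DN1, 34.9 and 42.3 in DN2a, 10.8 and 44.2 in DN2b), in no LSK library and in 1 IgG library (34.9). Among first starts it was the 1 member promoter open in all Delta1 and no LSK libraries, a pattern of 0.647% of promoters. The difference from LSK was -38.6 (exact permutation test, p = 0.0119, adjusted p = 0.117). At equal lengths only IgG replicate 3 kept the peak, so the Delta1 peaks were below the rank at which the shortest list ends.

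The Mitf promoter was open in every library but IgG replicate 3, at 86.4, 87.9 and 93.1 in LSK, 95.8 and 94.4 in DN1, 89.9 and 79.2 in DN2a, 77.5 and 89.3 in DN2b and 67.7 and 69.5 in IgG. IgG was lower than Delta1 (-41.9, exact permutation test, p = 0.0119, adjusted p = 0.0309), but not at equal lengths (-29.1, adjusted p = 0.238). The difference was -19.1 without IgG replicate 3. Leaving out any 1 IgG library ended the call here too (exact permutation test, adjusted p = 0.0785 to 0.0887). This is the start of the longest transcripts, and the 4 starts further into the gene were open in 1 library at most. The last of them lies near an intronic site 189 kb into the gene that was stronger in each Delta1 library (64.9 to 85.4) than in LSK (none, 22.4 and 21.3) or IgG (32.3, 6.88 and 37.6). At equal lengths this site was listed in all Delta1, all IgG and no LSK libraries, and Delta1 and IgG overlapped, with 27.0 in DN2a replicate 1 and 28.9 in IgG replicate 3. The Hdc promoter was listed in 3 libraries, each near the bottom of its list (1.79, 2.04 and 2.10).

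Other strong distal sites of the members were open in varied sets of libraries. The strongest site of the Il1rl1 window, 46.3 kb downstream in an intron of the interleukin-18 receptor gene Il18r1, stood at 74.6 to 90.7 in Delta1, at 39.7 and 32.1 in 2 LSK libraries and at 26.8 in 1 IgG library. All Delta1 values were above the others, and at equal lengths it was listed in 6 of 6 Delta1, 1 LSK and 1 IgG libraries. A site 25.8 kb downstream of the Cma1 start, nearest to Sdr39u1, stood at 70.1, 79.9 and 76.3 in LSK and at 54.4 to 82.0 in Delta1, with overlap, and at 35.3 or below in 2 IgG libraries. The site 10.5 kb downstream of the Ms4a2 start, between genes, stood at 72.4, 77.7 and 78.7 in LSK and at 77.8 and 71.7 in DN1, but was absent from 1 DN2b library, at 30.6 in the other, and absent from IgG. The site 22.2 kb into Mitf was open in LSK (62.0, 47.0 and 54.6), DN1 (64.4 and 63.2) and 1 DN2a library (27.9) only. The site 43.1 kb downstream of the Cpa3 start was open in LSK at 38.6, 60.5 and 67.0, in 3 Delta1 libraries at 27.2 to 54.4 and in 2 IgG libraries at lower rank (7.20 in replicate 3).

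**Figure D3:**
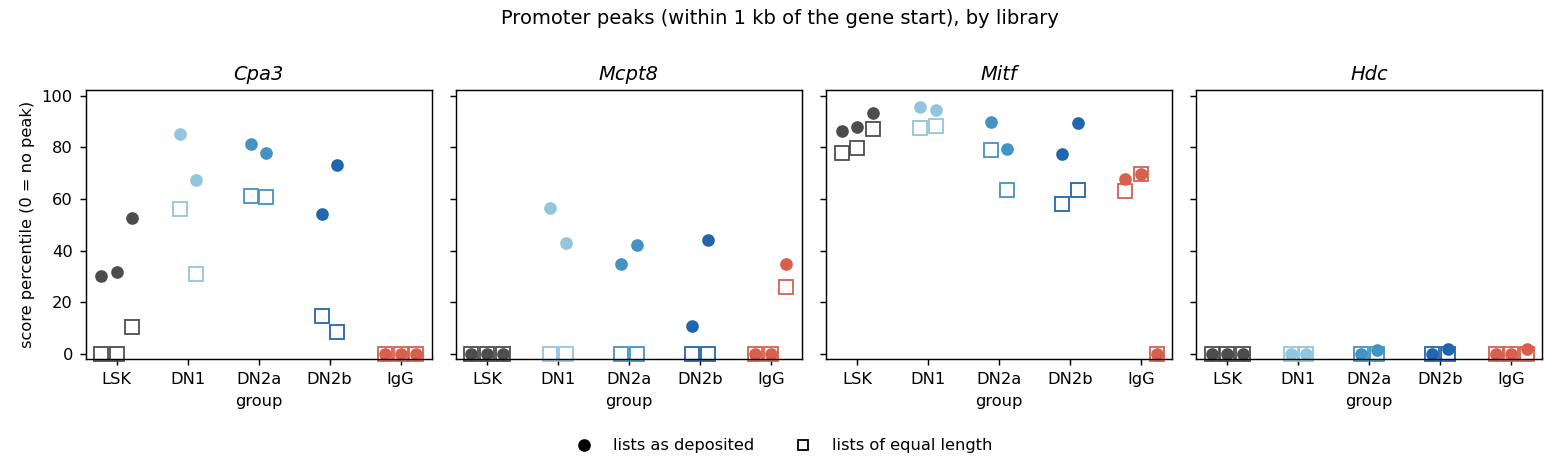
Score percentile of the promoter peak of 4 members in each library by group, with 0 where no peak was listed, filled circles for the lists as deposited and open squares for equal lengths. Cpa3 circles lie at 54.3 or above in Delta1 and at 0 in IgG, while the Mcpt8 squares lie at 0 in all libraries but 1.

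Some other promoters followed the members' pattern across the 12 libraries. By Pearson's r over the libraries, among 12194 other promoters open in at least 3 of them, the nearest to Cpa3 were Uqcc1 (0.982), Bend4 (0.981) and Hsd17b6 (0.979). Those nearest to Mcpt8 were Pik3r6 (0.922), Hist2h3c2 (0.920) and Stmn1 (0.917). Those nearest to Mitf were Aptx (0.984), Ppa2 (0.983) and Dock2 (0.983), and for Hdc, whose 3 peaks are weak, Gpr27 (0.891), Vmn1r201 (0.880) and Ascl2 (0.866). These are descriptions over libraries that share groups and list lengths.

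The count of sites in each window was also compared between groups. No member passed the adjusted threshold in any of 4 contrasts, as no gene did, with the lists as deposited or at equal lengths (exact permutation test, Benjamini-Hochberg). In the upper 50% of each list, Cpa3 and Cma1 passed, with IgG below Delta1, 2 of 8 members against 23.8% of 18285 genes. At an unadjusted p under 0.05, IgG differed from Delta1 for 3 of 8 members (43.3% of genes) and LSK from Delta1 for 2 (10.2%), and at equal lengths for 1 (26.6%) and 3 (3317 of 18443 genes). The other 2 contrasts cannot reach that p. Hdc had 6, 7 and 6 sites in LSK, 12 and 9 in DN1, 11 and 10 in DN2a, 10 and 14 in DN2b and 3, 5 and 5 in IgG. Both LSK (-4.67, exact permutation test, p = 0.0119, adjusted p = 0.411) and IgG (-6.67, p = 0.0119, adjusted p = 0.0613) lay below every Delta1 library. At equal lengths the difference of LSK from Delta1 for Hdc turned to 0.667, with overlap. Mitf lay below in IgG (2, 3 and 1 against 4 to 11, p = 0.0119 by the exact permutation test, adjusted p = 0.0613). With Gata2 these made 3 of 8 members with IgG below Delta1, close to the 41.4% of all genes, and at equal lengths none of the 3 was kept.

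The order of IgG and Delta1 turned with list length for Mcpt8, Il1rl1 and Ms4a2. Mcpt8 had 2, 1 and 2 sites in LSK, 5 and 3 in DN1, 3 and 5 in DN2a, 5 and 9 in DN2b and 3, 6 and 4 in IgG. At equal lengths LSK had 0, 0 and 0, Delta1 1 or 2 and IgG 3, 6 and 4. IgG was then 3.00 sites above Delta1 (exact permutation test, p = 0.0119, adjusted p = 0.0743), as were 8.84% of genes without overlap, whereas with the lists as deposited it was 0.667 sites below with overlap (p = 0.774), and 0.133 above without DN2b replicate 2. When only sites nearest to the Mcpt8 start were counted, IgG was below Delta1 by 2 sites on average, without overlap (exact permutation test, p = 0.0119, adjusted p = 0.0832). Under that rule 4 of 7 members did not overlap, as did 24.8% of all genes in either direction. For Il1rl1 the difference between IgG and Delta1 was -3.33 sites as deposited (-1.67 without IgG replicate 2 and -5.17 without IgG replicate 3) and 3.33 at equal lengths, and for Ms4a2 -2 and 0.667, each with overlap. Mcpt8 and Hdc were the members with LSK below Delta1 as deposited (9.14% of genes), and Mcpt8 and Cma1 at equal lengths (5.19% of genes). Against LSK, IgG was above for Mcpt8 as deposited (1.95% of genes) and at equal lengths (11.7%). It was below for Gata2, Cpa3, Hdc and Mitf as deposited (39.8%) and for Gata2 alone at equal lengths (15.1%). With 3 against 3 libraries the exact permutation test cannot give a p below 0.1. The IgG sites near Ctsg are among those counted for Mcpt8.

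**Figure D4:**
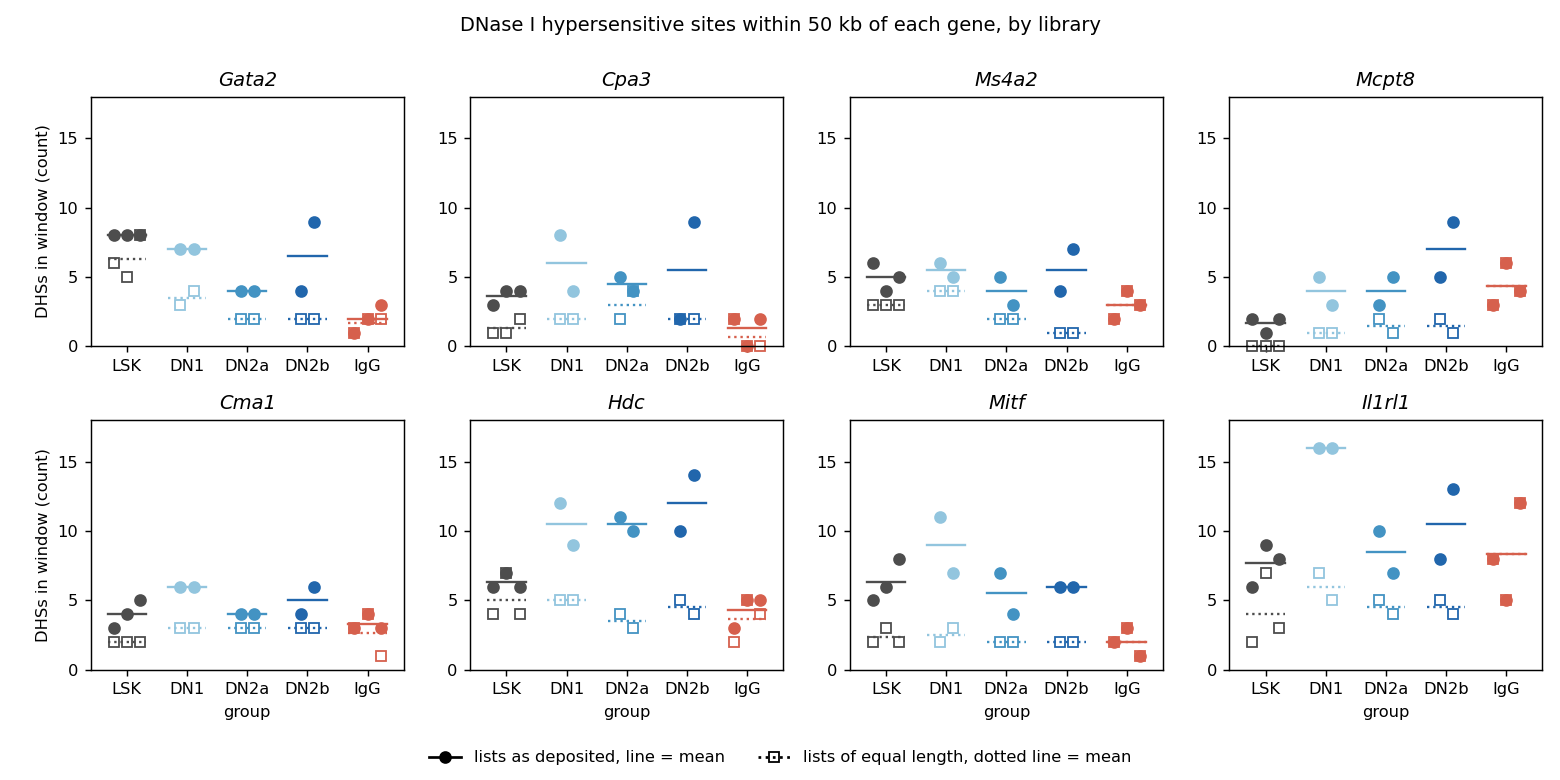
Number of DHSs within 50 kb of each of 8 members by library and group, with filled circles and solid mean lines for the lists as deposited and open squares and dotted mean lines for equal lengths. For Gata2 the LSK squares lie above those of Delta1 and IgG, while for Mcpt8 the IgG squares lie above all others.

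The letters of 6 factor families were searched for in the central 150 bp of each site, on both strands. GATA letters (AGATAA or TGATAA) were found in 33 of 115 distal sites of the members (28.7%), against 14.7% of 142182 distal DHSs. Among the windows, Cpa3 had them in 8 of 12 distal sites and Cma1 in 0 of 9. C/EBP letters (TTGCNNAA) were found in 15.7%, against 8.52%. The other families were nearer to the background, with the E-box letters CACGTG or CATGTG in 11.3% (15.6%), RUNX letters TGTGGT in 29.6% (25.9%), ETS letters GAGGAA in 20.9% (25.3%) and AP-1 letters TGANTCA in 10.4% (8.51%). Neighbouring sites may share base composition, which was not tested, and a match is no evidence that a factor is bound.

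The letters were also counted by pattern, for patterns of the lists as deposited. GATA letters were in all 3 sites open with Delta1 alone, against 19.1% of the 3226 such DHSs, and in 5 of the 13 open in Delta1 and not IgG, against 15.6%. They were in 1 of the 8 open in IgG and not Delta1, against 7.84%. At equal lengths only the Cpa3 site stayed among the 3 sites open with Delta1 alone. Those that came in, near Cma1 and in Hdc, held no GATA letters. C/EBP letters were in 6 of these 8 IgG sites, against 41.6% of the 3889 such DHSs, and in 0 of the 13 Delta1 sites, against 4.44% of 11808. Of the 3 sites open in LSK and not Delta1, 2 held GATA letters, against 19.2% of all such DHSs, and 2 held C/EBP letters, against 13.3%. Of the 12 sites open in DN1 and not DN2, 1 held GATA letters, against 13.3%, and 1 C/EBP letters, against 7.5%. RUNX letters, found in 55.4% of all DHSs open with Delta1 alone, were in 1 of the 3 member sites, and ETS letters, found in 49.98% of all DHSs open in DN1 and not DN2, in 3 of the 12.

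**Figure D5:**
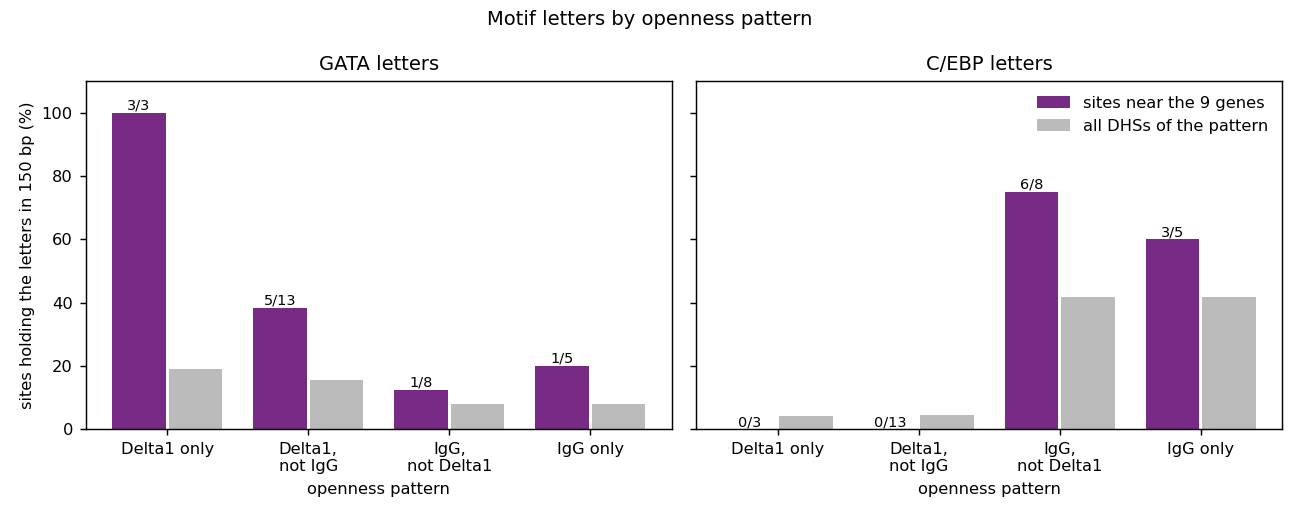
Percentage of sites that hold GATA letters (left) and C/EBP letters (right) in their central 150 bp, by openness pattern, for sites near the 9 genes (purple, with counts above the bars) and all DHSs of the pattern (grey). With the lists as deposited, GATA letters are in 3 of 3 sites open with Delta1 alone, and C/EBP letters in 6 of 8 sites open in IgG and not Delta1.

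A companion list of 24 other mast cell and basophil genes was read at the first start of each gene. In each library 6 to 10 of the 24 were open, against 40.9% to 57.1% of all genes, and 11 of 24 were open in no library, against 37.5% of all genes. At equal lengths 6 or 7 were open in IgG, 4 to 6 in LSK and 3 or 4 in Delta1, against 40.9% to 46.1% of all genes. There 15 of 24 were open in no library, against 47.0% of all genes. Among the 11 closed as deposited were the tryptases Tpsb2 and Tpsab1, the basophil protease Prss34, the mast cell receptors Mrgprb1 and Mrgprb2, Gata1 and Il4. Those open in all 12 libraries included Kit, the SCF receptor by which the DN cells were sorted, Il3ra, a subunit of the interleukin-3 receptor, and Hpgds, a prostaglandin D synthase. Rab27b, a granule trafficking gene, was the 1 of 24 open in all Delta1 and no IgG libraries, a pattern of 4.19% of promoters, and at equal lengths it was open in no library. None had the reverse pattern, which 0.514% of promoters showed. At equal lengths Csf2rb2, a shared cytokine receptor subunit, and Ltc4s, leukotriene C4 synthase, were open in all IgG and no Delta1 library, against 1.56% of promoters. Il13 was open in all 4 DN2 libraries, 1 DN1 library and no LSK or IgG library, with DN2a at a mean of 50.9 ± 3.19 (SD, n = 2) and DN2b at 66.9 ± 1.39 (SD, n = 2). Of 8 eosinophil genes, a lineage that also uses GATA factors, 6 were closed in every library, the granule protein genes Prg2, Epx, Ear1 and Ear2 and the receptor genes Il5ra and Ccr3. Siglecf, a surface lectin, was open in every Delta1 library and closed in LSK and IgG (mean percentiles of 55.4 in DN1, 39.7 in DN2a and 38.9 in DN2b), and at equal lengths in 1 DN1 and 1 DN2a library. Prg3, a granule protein gene, was open in 2 LSK and 2 DN1 libraries alone. Of 8 erythroid and megakaryocyte promoters, 5 were open in each LSK library, 3 to 6 in Delta1 and 0 or 1 in IgG, against 40.9% to 57.1% of all genes. At equal lengths 3 to 5 were open in LSK, 0 to 3 in Delta1 and 0 or 1 in IgG, against 40.9% to 46.1%.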

How the data were processed

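DNase-seq was available for 12 libraries. The authors aligned reads to mm10 with BWA 0.7.12 and SAMtools 1.2 and called peaks with hotspot2 at an FDR of 0.05. Peaks were deposited as 1 list a library. The deposited lists hold 150 bp peaks with a score from 1 to 150 whose meaning is not stated, so it was used only as a rank. No read counts were used, and read depth and its precision are unknown. Peaks off the autosomes and X (0.0622%) were left out.

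Genes and starts were taken from GENCODE M21, sequences from GRCm38.p6. Groups came from the labels. The members and lists were chosen with earlier results of these data known. Exact two-sided permutation tests compared group means over all divisions of the libraries (84, 20 or 15), and p-values were adjusted by Benjamini-Hochberg over all genes with a peak. Scripts (Python 3.11.15, numpy 2.4.6, scipy 1.17.1) were tested on simulated data. Named sites were each member's promoter, its 2 strongest distal sites, all distal sites separating IgG from Delta1, and up to 3 for each other pattern. Further sites named, such as the shared Hdc site, the Ctsg promoter and further Gata2 and Hdc sites, were chosen after their values were seen, as was the choice of sequences shown. The promoter table from RefSeq matched 9 of 9 members. Replicates of a group came from independent LSK isolates, but DN1, DN2a and DN2b were sorted from the same isolates, which the tests do not model. No 2 lists were identical. Alternatives were equal list lengths, the upper 50% of each list, windows of 25 and 100 kb, promoter windows of 500 bp and 2.5 kb, every coding start, distal sites only, nearest start only, merging at 50 bp of overlap, sites per 10000 peaks, and leaving out each library.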

Additional observations from a re-analysis of the deposited data

How the results depend on the processing

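Of 185 recomputed counts of members or sites, 153 stayed within 1.5 times the value given. This compares the size of a count, not which members or sites make it up. Sites open with Delta1 alone, for example, numbered 3 at equal list lengths too, but only the Cpa3 site was shared. Members whose window counts did not overlap between IgG and Delta1 numbered 3 of 8 (41.6% of all genes in either direction), and 1 (Mcpt8, with IgG higher; 18.5%) at equal list lengths, 5 (44.7%) in the upper 50% of each list, of which Cpa3 and Cma1 passed the adjusted threshold of the exact permutation test there, and 0 (28.3%) per 10000 peaks. For LSK against Delta1 there were 2 (9.47%), and 0 of 9 (12.2%) with a window of 100 kb. For IgG against LSK there were 5 (41.7%), and 2 at equal list lengths (26.8%) and with 100 kb (49.8%). For DN2 against DN1 there was 1 (5.11%), 2 at equal list lengths (17.2%) and with distal sites only (5.98%), and 0 in the upper 50% (6.60%) and with 100 kb (3.98%). Promoters without overlap numbered 2 of 6 for IgG against Delta1 (40.9%) and 1 of 3 at equal list lengths (25.6%), and 2 of 6 for LSK against Delta1 (12.7%), 0 of 3 at equal list lengths (16.2%) and 1 of 3 in the upper 50% (12.2%). The mean difference between IgG and Delta1 turned for Mcpt8 window sites, from -0.667 to 3.00 at equal list lengths, 1.33 in the upper 50% and 0.583 per 10000 peaks. With nearest start only this difference was -2, without overlap, where 24.8% of all genes did not overlap in either direction. It also turned for Il1rl1, from -3.33 to 3.33 at equal list lengths and 0.766 per 10000 peaks, for Ms4a2, from -2 to 0.667 and 0.204, and for the Mcpt8 promoter, from -27.0 to 8.65 at equal list lengths. Against Delta1, LSK turned for Hdc from -4.67 to 0.667 sites at equal list lengths, for Mitf from -0.5 to 0.167 and to 0.207 per 10000 peaks, and for Gata2 from 2.17 to -0.5 sites with 25 kb. The promoter of Cpa3 lost its call at equal list lengths (adjusted p = 0.0879) and in the upper 50% (0.0534), and that of Mitf at equal list lengths (0.238), by exact permutation tests. The cause of these changes was not tested.

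Percentages of sites are given beside those of all DHSs. The windows held 72 sites at equal list lengths, 66 in the upper 50%, 95 with 25 kb and 258 with 100 kb. Sites open in IgG and not Delta1 numbered 14 with 100 kb (5.43%, 2.28%), and those open in Delta1 and not IgG 8 at equal list lengths (11.1%, 5.01%). Those in LSK and not Delta1 numbered 1 in the upper 50% (1.52%, 1.13%) and with 25 kb (1.05%, 0.847%). Those in Delta1 and not LSK numbered 7 in the upper 50% (10.6%, 3.31%), and 7 also when IgG was required closed (10.6%, 3.00%). Those in DN1 and not DN2 numbered 4 at equal list lengths (5.56%, 3.78%) and in the upper 50% (6.06%, 4.90%), and those in DN2 and not DN1 1 with 100 kb (0.388%, 0.905%). With 1 library left out at a time, Mcpt8 window sites in IgG against Delta1 ranged from -1.50 to 0.133, those of Il1rl1 from -5.17 to -1.67, Mitf window sites in LSK against Delta1 from -1.33 to 0.333, members without overlap in DN2 against DN1 from 1 to 3 (5.84% to 25.8% of all genes), sites open with Delta1 alone from 3 to 5 (1.91% to 2.57% of all DHSs), sites in DN1 and not DN2 from 12 to 22 (3.99% to 12.8%), and sites in DN2 and not DN1 from 0 to 3 (0.934% to 2.54%). No paired analysis was possible because replicate numbers follow the order of deposition and do not tie libraries of different groups to an isolate. Without read depth, a site missing from a list cannot be told from one below the caller's threshold.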
